A study of Mus musculus with 14 samples.

Results

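The comparison described here is the change between day 2 and day 4 in control cells that did not switch on their hairpin, in the mouse line KL974, which models acute myeloid leukemia (AML). It uses 4 of the 14 libraries of the series, 2 from day 2 and 2 from day 4, chosen because their titles name the control shRNA, the day and the uninduced sort. All genes were compared, and 10791 of the 53465 genes in the table had enough reads to be tested. The series was made to follow knockdown of Ogdh with doxycycline-inducible short hairpin RNAs (shRNAs), and these cells are its uninduced control.

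Every group in the series shares 1 genotype, a Trp53 allele with the change R172H together with hairpins against Mll3 (also named Kmt2c) and Nf1, and was grown in serum with IL3, IL6 and SCF. The control cells carry shRen713 on a lentiviral vector that doxycycline turns on together with blue fluorescent protein (BFP). Cells of both days were kept in doxycycline and sorted by flow cytometry as BFP negative, so the labels of the 2 groups differ only in the day. Control cells from day 0, untreated and with no sort named in their titles, and BFP positive (induced) control cells from days 2 and 4 are shown beside them. The line is a single one, and no label says that replicates came from separate cultures, so a p-value here speaks only for these samples. It sets their distance against a replicate spread estimated over all 14 libraries, which may be technical.

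Cells sense oxygen through hypoxia-inducible factors, which are broken down while oxygen is plentiful and which, when it is scarce, bind a short DNA sequence with the core ACGTG near genes of glycolysis, lactate export and blood vessel growth. Cells sense sterols through SREBP2, a factor that is released from the endoplasmic reticulum when cholesterol is low and turns on the enzymes of cholesterol synthesis. Growth factors and cytokines act in part through the kinase ERK, which induces immediate early genes such as Egr1 and their feedback inhibitors within a short time.

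The 4 libraries held 2342968 and 4342673 counts at day 2 and 3663014 and 10271698 counts at day 4, and 3 counts correspond to between 0.292 and 1.28 CPM, the count scaled to a common library size. Levels below are CPM of the tested genes with TMM scaling, and log2 fold changes are given with their standard errors. Against the label AML, the blood progenitor genes Kit, Myb, Tal1 and Lmo2 were well expressed, whereas Cd34, Hoxa9, Hoxa10 and Cd93 had no reads in the 4 libraries. The 16 progenitor markers summed to 2090 and 1980 CPM of the whole library at day 2 and 1990 and 2000 CPM at day 4. The 20 erythroid and megakaryocyte markers, led by Ermap, Car2 and Gata1 and given below, summed to more in each of these libraries. Of 20 neutrophil and granule markers none was tested and 14 were at 0 in these libraries (sum at most 1.85 CPM), and of 17 lymphoid markers none was tested and 12 were at 0 (sum at most 4.38 CPM). Ogdh did not pass the test (266 and 211 CPM at day 2, 239.9 and 230.2 CPM at day 4, log2 fold change -0.01 ± 0.08, adjusted p = 0.986), and neither did Trp53 (-0.16 ± 0.08, adjusted p = 0.257) or Kmt2c (-0.05 ± 0.09, adjusted p = 0.796). Nf1 passed (0.40 ± 0.12, adjusted p = 0.0203), but not with DESeq2, with thinned libraries or without replicate 2 of either day.

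At day 4 uninduced cells had less RNA than at day 2 for many genes of glycolysis and of sterol synthesis and for some of the hypoxia response, and more for Egr1. At an adjusted p under 0.05, 753 genes were called, which is 6.98% of those tested: 334 were higher at day 4 (3.1%) and 419 were lower (3.88%). Most changes were small. The median size of the log2 fold change among called genes was 0.452, and 42 genes rose and 59 fell by more than 2-fold. The median over all tested genes was -0.003. In 752 of the called genes the levels of the 2 groups did not overlap. A call nearly requires this, so it adds no support, here or for the genes named below. The share over all tested genes was not counted.

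The number called depended on the libraries. It was 340 without replicate 2 of day 2, 296 without replicate 2 of day 4, 379 with the 4 libraries thinned to equal depth in the fit over all 14 and 139 with DESeq2. In all, 105 genes (37 higher and 68 lower) were called under each of 14 alternatives, and no called gene changed direction under any of them. Called genes also differed in length: the median log2 fold change ran from -0.083 in the shortest of 5 equal groups of genes (36 higher and 132 lower) to 0.044 in the longest (95 higher and 60 lower). With a correction for length added after the data were seen, 767 genes were called, 679 of them among the 753.

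**Figure D1:**
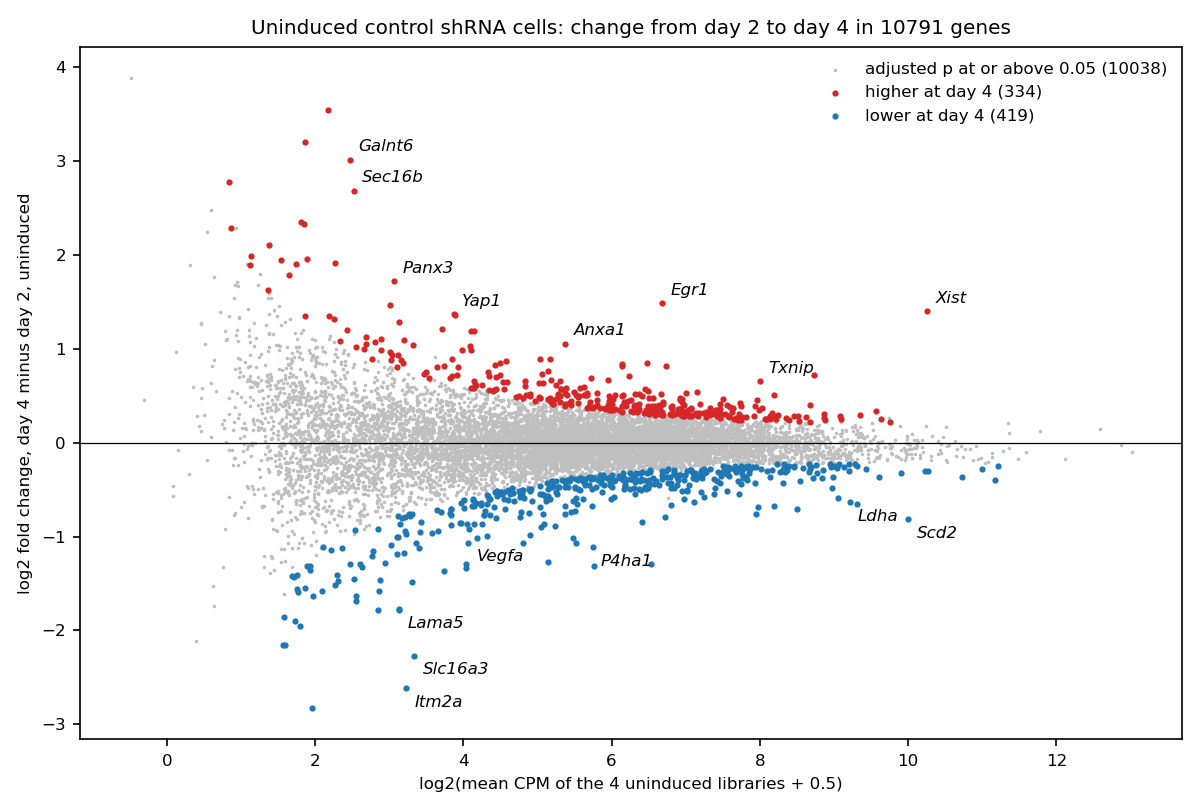
The log2 fold change from day 2 to day 4 in uninduced cells (vertical) is plotted against mean expression (horizontal, log2 CPM) for each of 10791 genes, in red where higher at day 4 (334), in blue where lower (419) and in grey where not called. Slc16a3 and Itm2a lie among the lowest points, and Egr1 and Xist stand above other genes of like expression.

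In the hypoxia response list 9 of 26 tested genes fell, 16 did not pass and 1 rose. Called members were thus 38.5% of those tested, against 6.98% of all genes. Slc16a3 encodes MCT4, the transporter that exports lactate, and lies on chromosome 11 (120948480 to 120960868, GRCm38). It measured 15.4 and 16.3 CPM at day 2 and 3.52 and 3.20 CPM at day 4, a fall by 79.2% (-2.27 ± 0.26, adjusted p = 2.61e-10). Both day 4 libraries were far below both day 2 libraries, and the day 0 libraries held 2.48 and 1.56 CPM. Vegfa, the main growth factor for blood vessels (chromosome 17, 46016993 to 46032369), went from 21.8 and 22.2 CPM to 10.8 and 10.4 CPM (-1.06 ± 0.19, adjusted p = 5.11e-05), with 4.26 and 4.296 CPM at day 0. Its replicates lay close together within each day and the groups did not overlap.

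P4ha1, a subunit of the collagen prolyl hydroxylase, fell from 70.2 and 75.1 CPM to 32.5 and 34.5 CPM (-1.11 ± 0.12, adjusted p = 2.23e-11). Ddit4, an inhibitor of the growth kinase complex mTORC1, fell from 64.2 and 55.7 CPM to 26.8 and 30.5 CPM (-1.01 ± 0.13, adjusted p = 1.12e-08). Pdk1, which keeps pyruvate out of the mitochondrial TCA cycle, fell from 54.0 and 57.6 CPM to 34.4 and 33.5 CPM (-0.73 ± 0.12, adjusted p = 1.02e-05). In each of these 3 genes both day 4 libraries were below both day 2 libraries, and each kept its call under the 14 alternatives. At day 0 the 2 libraries measured 29.1 and 25.8 CPM for P4ha1, 22.4 and 15.6 CPM for Ddit4 and 29.5 and 32.4 CPM for Pdk1.

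The hypoxia list held 30 genes, and the median log2 fold change of the 26 tested was -0.308. The other genes that fell were Ankrd37 (-1.41), the oxygen sensor Egln1 (-0.64), Fam162a (-0.50) and the hexokinase gene Hk2 (-0.39). These 4 calls were less secure: each was lost with DESeq2, Ankrd37 also without replicate 2 of day 2, Egln1 without replicate 2 of either day, and Hk2 without replicate 1 of day 2 or replicate 2 of day 4. Ankrd37 overlaps another counted gene, so the source of its reads is uncertain. Anxa2, which encodes a membrane-binding annexin, was the member that rose (0.59 ± 0.13, adjusted p = 0.00116, not called with DESeq2). DESeq2 called 5 members lower. Classic targets among the 16 that did not pass were Bnip3l (0.10), the histone demethylase gene Kdm3a (0.01), the glucose transporter gene Slc2a1 (-0.34, adjusted p = 0.146) and Car9 (-0.23), the last at only 4.28 and 3.73 CPM at day 2 and 2.98 and 3.49 CPM at day 4.

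**Figure D2:**
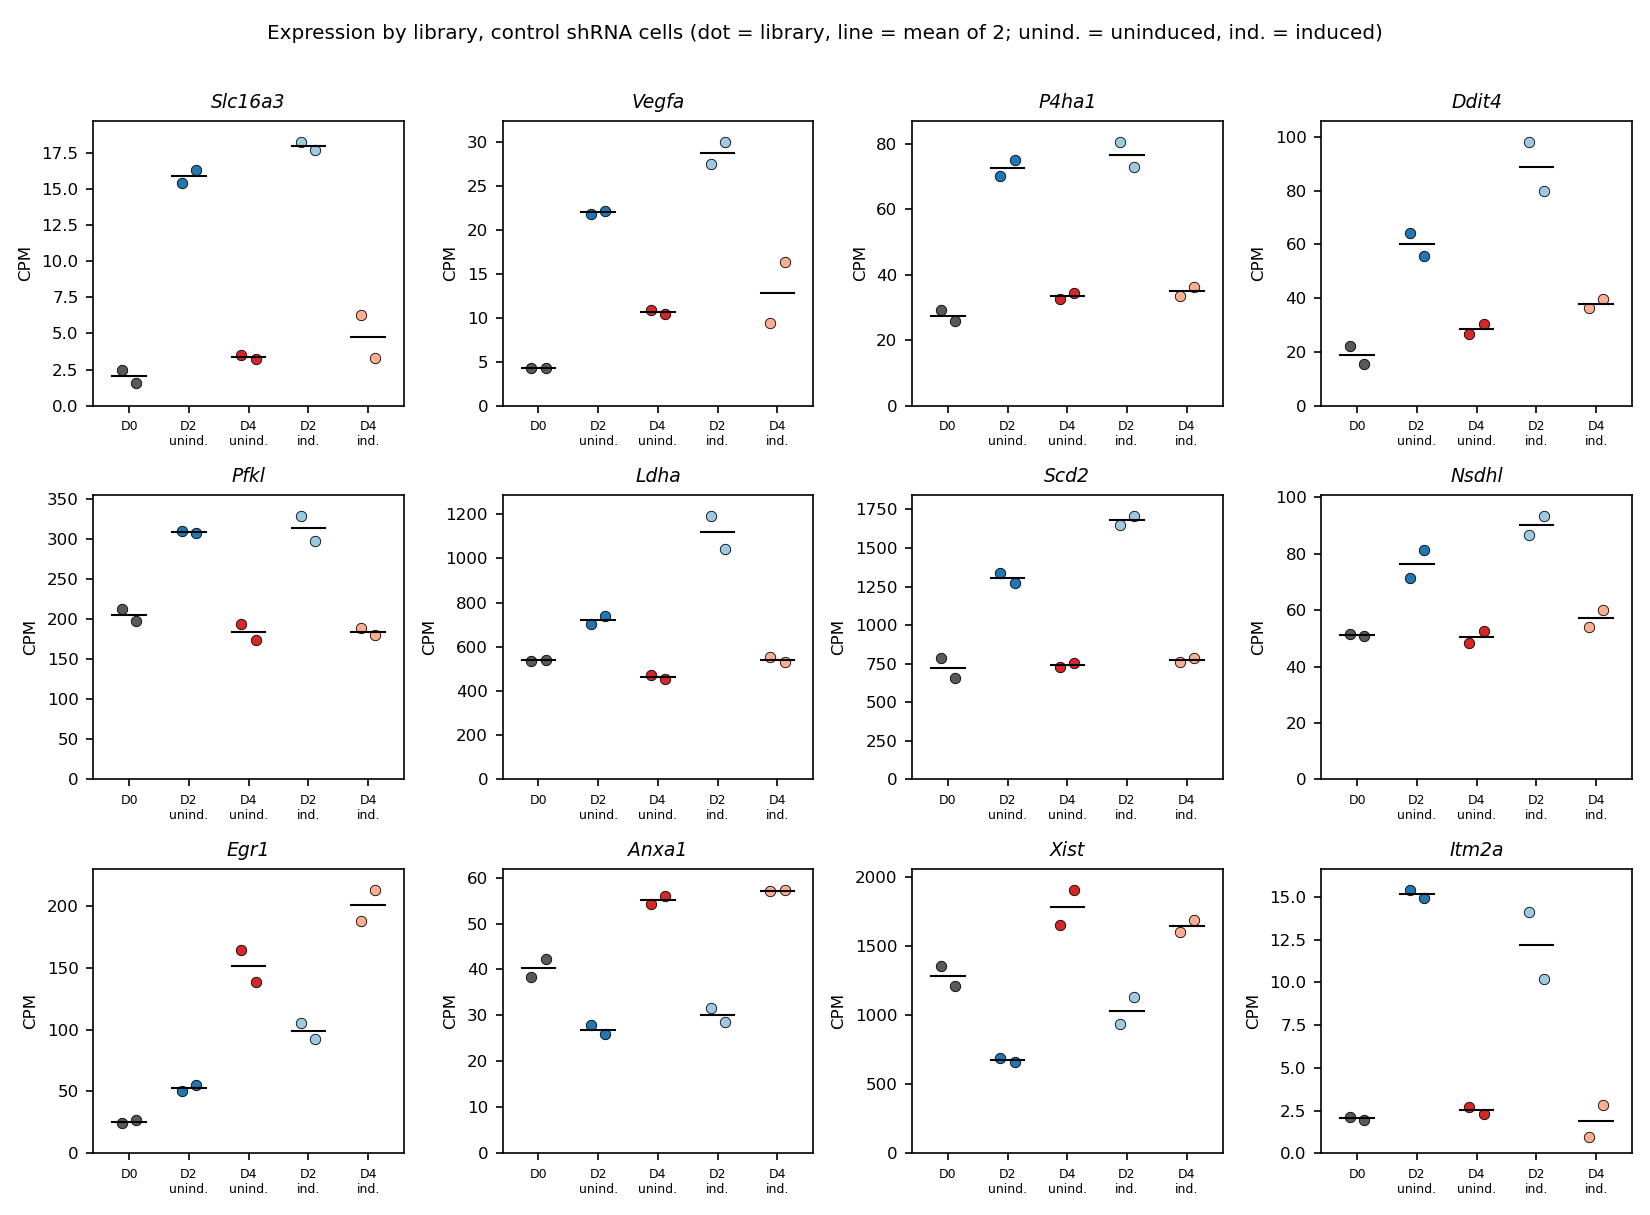
Each panel plots the CPM (vertical, from 0) of 1 gene in the 2 libraries of 5 control groups, with a line at the mean: day 0, then uninduced and induced cells at days 2 and 4. Slc16a3, Vegfa, P4ha1, Ddit4, Pfkl, Ldha, Scd2, Nsdhl and Itm2a were lower in both day 4 uninduced libraries than in both day 2 libraries, and Egr1, Anxa1 and Xist were higher.

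Promoters are printed for 4 hypoxia and glycolysis genes that fell, because they show the core ACGTG that hypoxia-inducible factors recognize, and Ldha for its repeated copies. They come from the RefSeq table of build GRCm38.p6 and run 5′ to 3′ from 250 bases before to 50 bases after the start. Capitals mark ACGTG on either strand (CACGT on the printed strand), so that 2 overlapping matches appear as CACGTG, which is also the E-box that MYC and other factors bind.
Slc16a3, chr11:120948817-120949116, plus strand: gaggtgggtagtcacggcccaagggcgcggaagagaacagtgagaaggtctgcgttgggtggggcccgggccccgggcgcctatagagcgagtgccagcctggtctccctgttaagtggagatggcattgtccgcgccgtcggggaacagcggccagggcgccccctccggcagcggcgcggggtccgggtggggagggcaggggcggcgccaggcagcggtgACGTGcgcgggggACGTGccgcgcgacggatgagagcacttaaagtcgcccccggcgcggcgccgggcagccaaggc
P4ha1, chr10:59323046-59323345, plus strand: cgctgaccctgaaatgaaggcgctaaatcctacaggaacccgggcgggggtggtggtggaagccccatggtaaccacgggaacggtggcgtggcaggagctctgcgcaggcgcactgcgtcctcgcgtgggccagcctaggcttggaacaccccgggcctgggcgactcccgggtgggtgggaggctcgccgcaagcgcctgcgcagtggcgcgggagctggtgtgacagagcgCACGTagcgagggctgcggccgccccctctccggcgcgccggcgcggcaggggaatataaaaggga
Ddit4, chr10:59951721-59952020, minus strand: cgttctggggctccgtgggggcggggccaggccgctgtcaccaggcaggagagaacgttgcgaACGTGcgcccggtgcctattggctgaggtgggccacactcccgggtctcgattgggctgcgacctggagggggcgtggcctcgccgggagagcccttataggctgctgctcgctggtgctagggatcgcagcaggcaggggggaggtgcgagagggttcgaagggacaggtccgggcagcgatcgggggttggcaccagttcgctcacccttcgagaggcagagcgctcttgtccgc
Ldha, chr7:46845554-46845853, plus strand: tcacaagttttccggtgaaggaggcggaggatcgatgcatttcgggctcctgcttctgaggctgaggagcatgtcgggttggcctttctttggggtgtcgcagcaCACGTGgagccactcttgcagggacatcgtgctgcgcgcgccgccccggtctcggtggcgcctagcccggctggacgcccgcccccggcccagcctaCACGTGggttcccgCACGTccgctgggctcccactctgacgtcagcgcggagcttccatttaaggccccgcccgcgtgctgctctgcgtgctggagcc
The window of Slc16a3 holds 2 matches, those of P4ha1 and Ddit4 hold 1 each and the printed window of Ldha holds 5. Ldha has 2 promoters with an entry, and only 1, the one printed, had a match. Among tested genes with an entry, 2517 of 8306 (30.3%) had a match in at least 1 promoter. Of the 21 genes of the hypoxia and glycolysis lists that fell, 15 (71.4%) had one. Of the 18 members with an entry that did not fall, 14 (77.8%) had one. A match is a description of the sequence and not a binding site.

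Genes of glycolysis were lower at day 4 along most of the pathway. Pfkl, the liver-type phosphofructokinase that commits sugar to glycolysis, measured 311 and 308 CPM at day 2 and 195 and 174 CPM at day 4 (-0.76 ± 0.08, adjusted p = 2.23e-11). Aldoa, the aldolase that splits the sugar phosphate, went from 469.7 and 429.5 CPM to 292 and 261 CPM (-0.71 ± 0.08, adjusted p = 1.03e-09). Its symbol belongs to more than 1 identifier in the table, so its reads are uncertain. Eno1, the enolase, went from 783 and 765 CPM to 521 and 465 CPM (-0.66 ± 0.07, adjusted p = 1.23e-10). For all 3 the day 4 libraries were below the day 2 libraries.

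Ldha, which turns pyruvate into lactate, went from 702 and 738 CPM to 473 and 456 CPM (-0.63 ± 0.07, adjusted p = 5.71e-10). Pgk1 (-0.63), Tpi1 (-0.59), Gpi1 (-0.48) and Pkm (-0.36) also fell and, with Pfkl, Aldoa, Eno1, Ldha and Slc16a3, kept their calls under the 14 alternatives. Gapdh fell (-0.36) but lost its call without replicate 2 of day 4 (adjusted p = 0.107). Of 25 genes in the list 23 were tested, of which 14 fell (60.9%, against 3.88% of all genes) and 9 did not pass. Of the 23, 21 had a log2 fold change below 0, and the median was -0.474. Aldoc (-1.86), Pgam1 (-0.55) and Eno3 (-0.61), the other aldolase, the mutase and the other enolase, fell too. Aldoc lost its call without replicate 2 of day 2, Pgam1 without replicate 1 of day 2 and Eno3 without each of 3 libraries in turn. Leaving out a library gave 11 to 13 lower members and DESeq2 gave 10. The members with no call included the first step outside the cell, the glucose transporter Slc2a3 (0.06, adjusted p = 0.797), the hexokinase Hk1 (-0.12, adjusted p = 0.346), the muscle-type phosphofructokinase Pfkm (-0.08, adjusted p = 0.604) and the other lactate carrier, Slc16a1 (0.02, adjusted p = 0.941).

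In the sterol synthesis list 16 of 25 genes fell (64%, against 3.88% of all genes). Sqle, the squalene epoxidase, went from 256 and 259.6 CPM to 187 and 201 CPM (-0.40 ± 0.08, adjusted p = 0.000272). Nsdhl, which removes carbon from the sterol ring system, went from 71.5 and 81.4 CPM to 48.3 and 52.5 CPM (-0.60 ± 0.11, adjusted p = 6.06e-05). Insig1, the anchor that holds SREBP in the endoplasmic reticulum, went from 77.1 and 78.1 CPM to 52.3 and 52.0 CPM (-0.58 ± 0.11, adjusted p = 9.62e-05). The groups did not overlap in any of the 3.

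The other 9 members did not pass, and each of the 25 had a log2 fold change below 0 (median -0.408). Cyp51 (-0.45) and the sterol carrier gene Stard4 (-0.51) also kept their calls under the 14 alternatives. Srebf2, which encodes SREBP2 itself, fell by 24.6% (-0.41) but was not called without replicate 2 of day 4 (adjusted p = 0.0672). The enzyme genes Mvd (-0.60), Fdft1 (-0.55), Acat2 (-0.48), Msmo1 (-0.46), Lss (-0.39) and Dhcr7 (-0.39) fell as well, but each lost its call with DESeq2 and without at least 1 of the 4 libraries. Without replicate 2 of day 4 the list had 9 lower members, and with DESeq2 it had 8.

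The promoter of Hmgcs1, the first committed enzyme of the pathway, is printed because it holds a copy of the sterol regulatory element searched for, TCACNCCAC on either strand, in capitals (RefSeq, GRCm38.p6).
Hmgcs1, chr13:119690101-119690400, plus strand: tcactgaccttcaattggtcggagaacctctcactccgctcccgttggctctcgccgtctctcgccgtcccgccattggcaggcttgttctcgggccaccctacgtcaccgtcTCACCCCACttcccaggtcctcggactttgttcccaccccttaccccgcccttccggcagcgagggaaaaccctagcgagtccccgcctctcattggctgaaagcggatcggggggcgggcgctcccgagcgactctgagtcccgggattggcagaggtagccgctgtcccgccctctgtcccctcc
Of 17 list members with an entry in the promoter table it was the only one with a match (5.88%), against 113 of 8306 tested genes (1.36%). The element was not particular to this list, since 2 of 22 glycolysis genes with an entry had a match (9.09%), as against 0 of 20 hypoxia genes. Hmgcs1 itself went from 57.4 and 57.1 CPM to 48.0 and 42.7 CPM (-0.36 ± 0.12, adjusted p = 0.0438), and 7 of the 14 alternatives did not call it, DESeq2 and the fits without replicate 1 or 2 of day 2 or replicate 2 of day 4 among them.

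Fatty acid genes moved less evenly, and 61.5% of those tested were called in either direction, against 6.98% of all genes. Scd2, a stearoyl-CoA desaturase, went from 1339 and 1270.4 CPM to 731 and 753 CPM (-0.81 ± 0.07, adjusted p = 7.42e-14) and was among the largest changes at high expression. Both day 4 libraries lay close to the day 0 libraries, which measured 787 and 657 CPM. Its relative Scd1 went the other way, from 73.7 and 70.7 CPM to 87.0 and 93.3 CPM (0.34 ± 0.10, adjusted p = 0.0296), a call that 6 of 14 alternatives did not make. Of 13 tested members 7 fell, 1 rose (Scd1) and 5 did not pass (median -0.267), and without replicate 1 of day 2 or replicate 2 of day 4 only 3 fell. Fads2 (-0.51) and Elovl6 (-0.49), a desaturase and an elongase, were lower but lost their calls without replicate 2 of day 4 and with DESeq2, respectively. Fasn, the fatty acid synthase, fell (-0.27) but lost its call in 6 alternatives, as did Srebf1 (-0.29), which encodes SREBP1. Elovl5 (-0.35) and Fads1 (-0.26) fell and lost theirs in 5 and 7 alternatives.

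Egr1 had the largest rise among the immediate early genes tested. Egr1, a zinc finger transcription factor, measured 50.1 and 55.5 CPM at day 2 and 165 and 138 CPM at day 4, 2.80-fold higher (1.48 ± 0.11, adjusted p = 6.46e-18), and 24.1 and 26.95 CPM at day 0. Both day 4 libraries were above each library of the earlier days. Of 33 genes of the list 25 were tested, of which 3 rose, 2 fell and 20 did not pass. Called members were 20% of those tested, against 6.98% of all genes. Of the 25, 17 had a log2 fold change above 0 (median 0.262, 0.17 to 0.353 over the alternatives). The other 2 that rose were feedback inhibitors of ERK signalling, Dusp6 (0.71, adjusted p = 0.0311) and Spred1 (0.39, adjusted p = 0.0249). Neither was called with DESeq2, with thinned libraries or without replicate 2 of day 2. Myc (-0.30, adjusted p = 0.0074) and Dusp2 (-0.80, adjusted p = 0.0455) fell, both without a call by DESeq2 and without replicate 1 of day 2 or replicate 2 of day 4. Fos was near its floor (3.43 and 3.03 CPM, then 2.44 and 2.62 CPM), and Jun (0.41, adjusted p = 0.0735) did not pass.

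Of 49 cytosolic ribosomal protein genes 7 fell (14.3%, against 3.88% of all genes) and 42 did not pass, and 47 had a log2 fold change below 0 (median -0.156). The number that fell was 23 without replicate 1 of day 2 and 0 without replicate 2 of day 4, against 1 with DESeq2. Of 54 nuclear genes of oxidative phosphorylation 3 fell (5.56%; median -0.149, 48 below 0), of 38 DNA replication genes 3 fell (7.89%), and of 38 mitosis genes 1 rose (2.63%, against 3.1% of all genes). In the ATF4 amino acid stress list 3 of 23 fell and 1 rose. These were Ddit4, the pseudokinase gene Trib3 (-0.80), the serine synthesis gene Phgdh (-0.40) and the glycine transporter gene Slc6a9 (0.66), the last 3 not called with DESeq2, nor Trib3 without replicate 1 of day 2, Phgdh without replicate 2 of either day or Slc6a9 without replicate 2 of day 2. Of 17 p53 targets only Perp, a cell junction protein gene, was called, and it fell from 105 and 112 CPM to 57.5 and 62.9 CPM (-0.84 ± 0.10). In the NRF2 antioxidant list 4 of 19 rose, among them Nqo1, a quinone reductase (98.1 and 108 CPM, then 140.4 and 145 CPM, 0.46 ± 0.09, adjusted p = 0.000455), which kept its call under the 14 alternatives. Gclc (0.30), Txnrd1 (0.31) and Gsta4 (0.50) lost theirs in 6, 5 and 6 of them, and leaving out any 1 of the 4 libraries left 1 or 2 members higher, as against 1 with DESeq2. In the heat shock list 3 of 15 fell, the chaperone genes Hspa8 (-0.40), Hsph1 (-0.43) and Hspe1 (-0.26), of which Hspe1 lost its call in 9 alternatives. In the iron list 1 of 12 tested genes rose and 1 fell. Slc40a1, the iron exporter ferroportin, rose from 195 and 224 CPM to 283 and 296 CPM (0.46 ± 0.08, adjusted p = 2.65e-05). Steap3 fell (-0.28, adjusted p = 0.0299), a call lost in 7 alternatives.

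**Figure D3:**
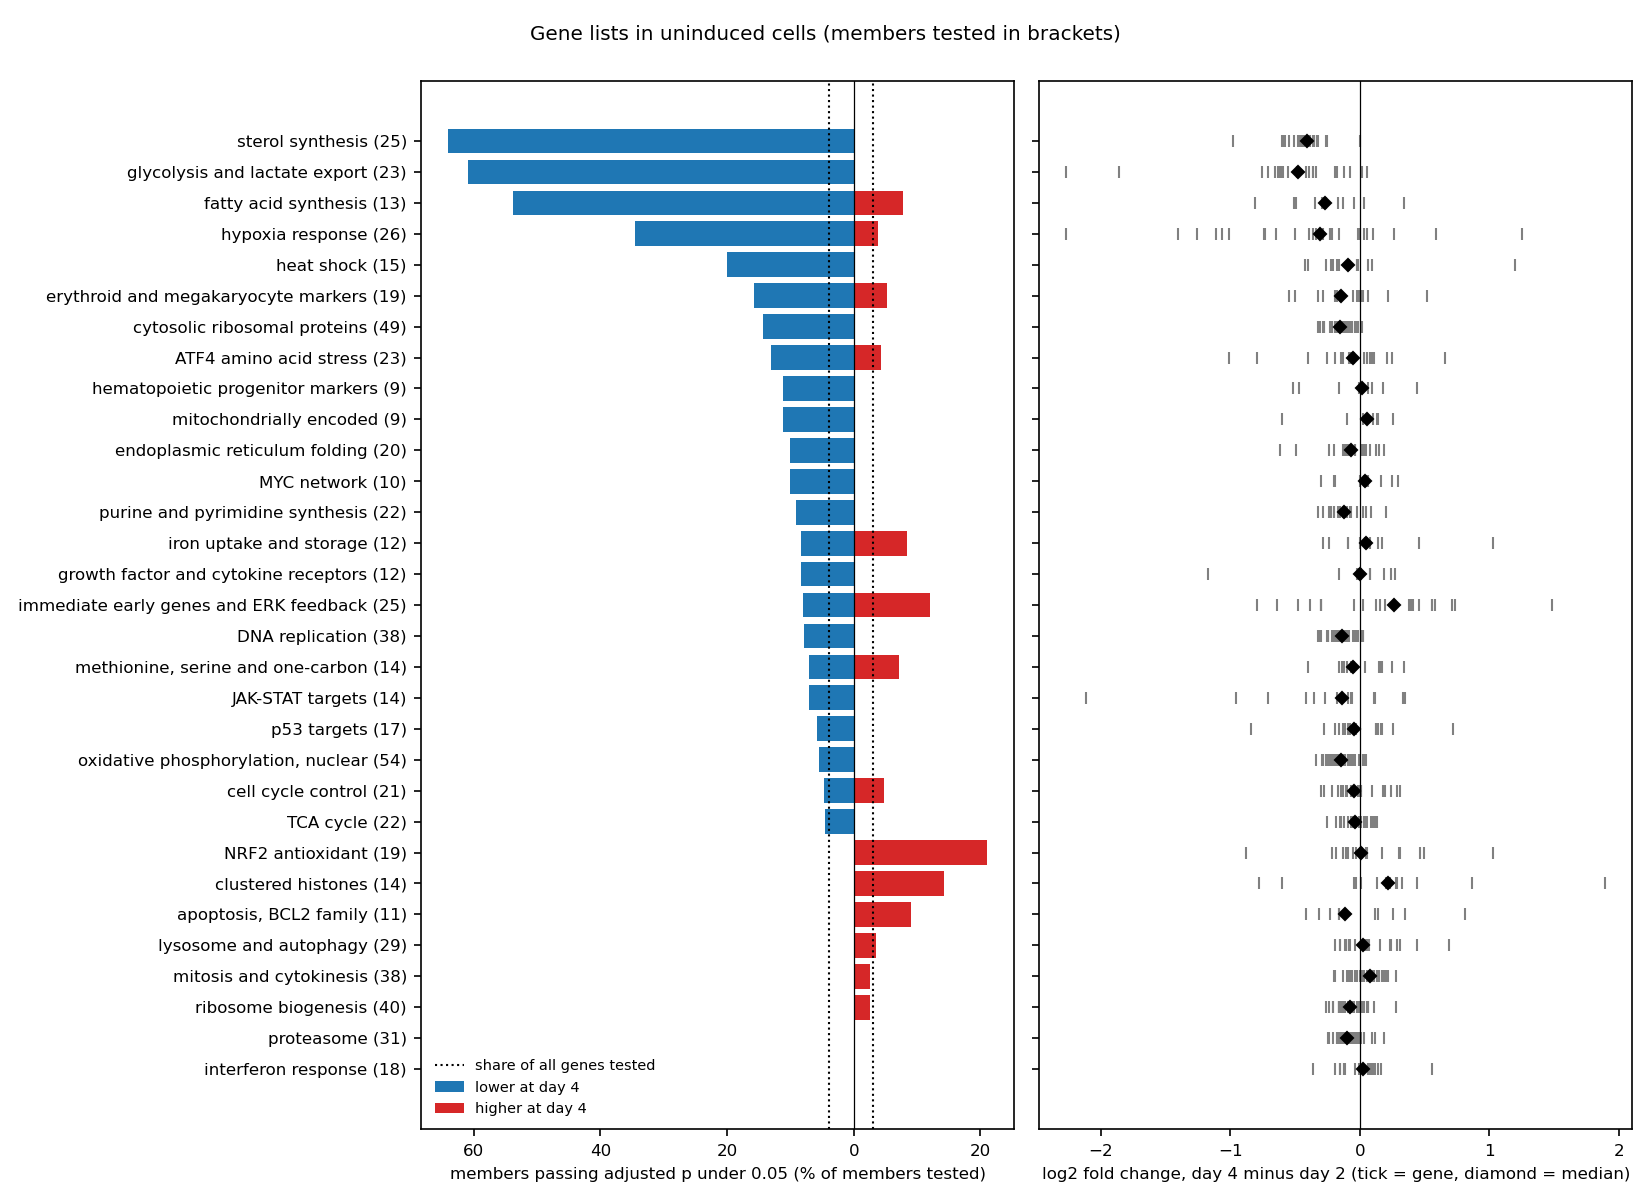
For each list with at least 9 tested genes (number in brackets), bars on the left give the share of members called lower (blue) and higher (red) at day 4, with dotted lines at the shares over all genes (3.88% and 3.1%), and the right panel gives each member's log2 fold change as a tick and the median as a diamond. Sterol synthesis, glycolysis, fatty acid synthesis and the hypoxia response have the largest shares of lower members.

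Among the genes with the largest changes, those that fell were led by Itm2a, a membrane protein gene on the X chromosome. It measured 15.4 and 14.9 CPM at day 2, 2.71 and 2.33 CPM at day 4 (-2.62 ± 0.29, adjusted p = 1.14e-10) and 2.13 and 1.95 CPM at day 0. Lama5, a laminin chain, fell from 15.0 and 11.7 CPM to 2.17 and 4.36 CPM (-1.78 ± 0.28), and Lin28b, an RNA-binding protein that blocks let-7 maturation, from 15.8 and 12.6 CPM to 4.07 and 5.24 CPM (-1.49 ± 0.25). These 3 genes were named from called genes whose groups do not overlap, so the gap between their groups adds no support. Each kept its call under the 14 alternatives, as did Arfgef3 (-1.78). The other genes of this set were less secure. Cxxc5 (-1.78) and Hopx (-1.46) were not called with DESeq2, Ccdc85c (-1.63) without replicate 2 of day 4, and Trim30a (-1.69) and Smtnl2 (-1.58) with DESeq2 or without replicate 2 of day 2. Hopx overlaps Hopxos, so the source of its reads is uncertain.

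At the other end, Galnt6, an enzyme that starts mucin-type glycans, rose from 0.428 and 1.40 CPM (1 and 6 counts) to 10.3 and 8.14 CPM (38 and 84 counts; 3.02 ± 0.44, adjusted p = 6.03e-07). Sec16b, which acts at endoplasmic reticulum exit sites, rose from 0.856 and 1.63 CPM (2 and 7 counts) to 10.0 and 8.44 CPM (37 and 87 counts; 2.69 ± 0.40, adjusted p = 1.12e-06). Day 0 libraries held 5.68 and 8.59 CPM of Galnt6 and 6.03 and 5.47 CPM of Sec16b, so that day 2 was the low point for both. Their size is imprecise because few reads carry the day 2 level.

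Xist, the noncoding RNA that silences an X chromosome, was the most abundant of the genes that changed by more than 2-fold. It measured 692 and 657 CPM at day 2, 1654 and 1906 CPM at day 4 (1.40 ± 0.10, adjusted p = 2.23e-11) and 1353 and 1212 CPM at day 0. Tsix is transcribed antisense to it, and no strand setting is given in the sources used here. Panx3, a channel protein gene, rose from 4.28 and 3.26 CPM to 11.9 and 12.1 CPM (1.72 ± 0.29). Hoxc5 (1.37) also rose, but its span overlaps Hoxc6, Hoxc8 and Hoxc9. Plcd4 (1.47), Cbr3 (1.29) and Cpeb2 (1.21) complete the set that rose. Plcd4 and Cbr3 were not called with DESeq2, Plcd4 and Cpeb2 not without replicate 2 of day 2, and Cbr3 not without replicate 1 of day 2. Plcd4 also overlaps other counted genes.

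Among the other marker lists, 4 of 19 tested erythroid and megakaryocyte genes (21.1%) and 2 of 6 mast cell genes were called. So were 1 of 3 monocyte genes and 1 of 6 stromal genes, against 6.98% of all genes tested. Apoe, a lipid carrier that macrophages make in quantity, fell from 138 and 127.1 CPM to 85.9 and 70.3 CPM (-0.79 ± 0.10, adjusted p = 9.51e-09). The 20 monocyte and macrophage markers summed to 146 and 134 CPM of the whole library at day 2 and 97.2 and 80.9 CPM at day 4. On that scale Apoe alone made 138 and 125 CPM and then 86.5 and 70.6 CPM, so the sum largely repeats Apoe. Of the 20 markers, 12 had no reads in these libraries, Lyz2, Fcgr1 and the C1q genes among them. Csf1r was at 0 in 3 of the 4 with 0.23 CPM in the other. Gata2, a transcription factor of blood stem and mast cells, fell from 235.5 and 207 CPM to 154.5 and 152 CPM (-0.52 ± 0.08, adjusted p = 4.87e-06), while Kit (-0.16, adjusted p = 0.174) and Myb (0.07, adjusted p = 0.66) did not pass. The 20 erythroid and megakaryocyte markers summed to 3710 and 3530 CPM and then 3650 and 3420 CPM. Hba-a1 and Hba-a2, some of whose reads may not be told apart, fell (-0.55 and -0.50). The erythroid transcription factor gene Klf1 fell (-0.28) and the blood group gene Ermap rose (0.22). Hba-a2, Klf1 and Ermap lost their calls in 4, 6 and 8 alternatives, each of them with DESeq2 and without replicate 2 of day 4, while Hba-a1 kept its call. The 17 mast cell, basophil and eosinophil markers summed to 550 and 575 CPM at day 2 and 587 and 590 CPM at day 4, with Ms4a2 (0.48) and Cd200r3 (1.31) higher, both without a call by DESeq2. Ms4a2 was also not called without replicate 1 of day 2 or replicate 2 of day 4, nor Cd200r3 with thinned libraries or without replicate 2 of day 2 or replicate 1 of day 4. Of 13 stromal markers Col1a2, a collagen chain, rose from 11.6 and 9.33 CPM to 22.5 and 23.5 CPM (1.19 ± 0.20, adjusted p = 1.42e-05), and Pdgfra and Lum were at 0. In bulk RNA, fewer cells of a type and less RNA per cell cannot be told apart, and the part of these markers in the other changes was not tested.

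The same days were measured in induced (BFP positive) control cells, in libraries of their own, which shows whether a change was also seen in the other sort. The cause of a change shared by both sorts was not tested. There, 1296 genes were called (12%), 644 higher and 652 lower. Of the 753 genes called in uninduced cells 372 (49.4%) were called in the same direction in induced cells, which is 28.7% of the induced calls, and 8 were called in the opposite direction. In the induced libraries Slc16a3 (-1.83 ± 0.31), Vegfa (-1.21 ± 0.23), P4ha1 (-1.16 ± 0.14), Ddit4 (-1.27 ± 0.14), Pfkl (-0.77 ± 0.09), Scd2 (-1.12 ± 0.08) and Egr1 (0.99 ± 0.11) changed the same way. Sterol synthesis had 19 lower members in induced cells (median -0.607), glycolysis 15 lower and 1 higher (-0.463) and the hypoxia list 11 lower and 2 higher (-0.459). The labels do not say whether both sorts came from the same culture.

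The difference between the 2 changes was tested directly, and 77 genes were called (0.714%), 49 with a higher change in induced cells and 28 with a lower one. None of Slc16a3 (0.43 ± 0.42, adjusted p = 0.825), Vegfa (-0.15 ± 0.30, adjusted p = 0.932) and Egr1 (-0.50 ± 0.16, adjusted p = 0.152) was among them, which does not show that they changed alike. With DESeq2 22 genes were called for the difference, and without replicate 1 of induced day 2 the number was 29. Of the 77 genes, 28 were called in uninduced cells too, and 20 of these had opposite signs in the 2 sorts.

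**Figure D4:**
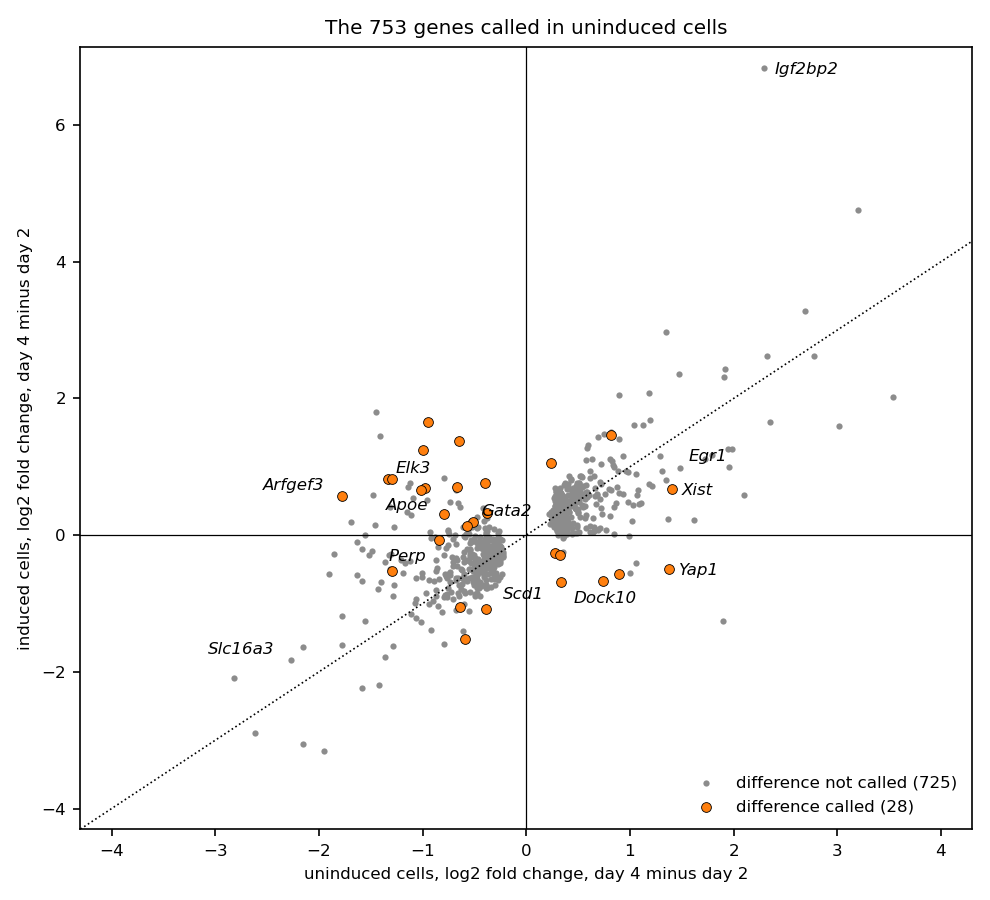
For the 753 genes called in uninduced cells, the log2 fold change from day 2 to day 4 in uninduced cells (horizontal) is plotted against that in induced cells (vertical), with a dotted line where both are equal and orange points for the 28 genes whose difference was called. Most points share a sign in both axes (682 of 753), and Igf2bp2, with no reads in both induced day 2 libraries, lies at the top.

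Apoe, Elk3 and Gata2 were highest in uninduced cells at day 2. Apoe measured 138 and 127.1 CPM in uninduced cells at day 2 but 51.0 and 54.5 CPM in induced cells that day, and 66.1 and 62.5 CPM in induced cells at day 4. Its change differed between the sorts by 1.09 ± 0.17 (adjusted p = 2.86e-05). Elk3, an ETS family transcription factor gene chosen here after its values were seen, fell in uninduced cells from 24.4 and 21.5 CPM to 8.68 and 9.02 CPM and measured 6.89 and 6.13 CPM and then 13.5 and 9.33 CPM in induced cells (difference 2.16 ± 0.38, not called without replicate 1 of induced day 4). Gata2 measured 147 and 136 CPM and then 165 and 161 CPM in induced cells, with a difference of 0.71 ± 0.13 (adjusted p = 0.0003). For these 3 genes uninduced day 2 libraries were above those of each other control group.

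Yap1, a coactivator of the Hippo pathway, rose from 5.99 and 9.09 CPM to 21.1 and 20.5 CPM in uninduced cells (1.37 ± 0.21), against 22.7 and 25.2 CPM and then 17.9 and 15.4 CPM in induced cells (difference -1.86 ± 0.31, adjusted p = 5.09e-05). Uninduced day 2 was the only control group in which Yap1 was below 10 CPM.

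**Figure D5:**
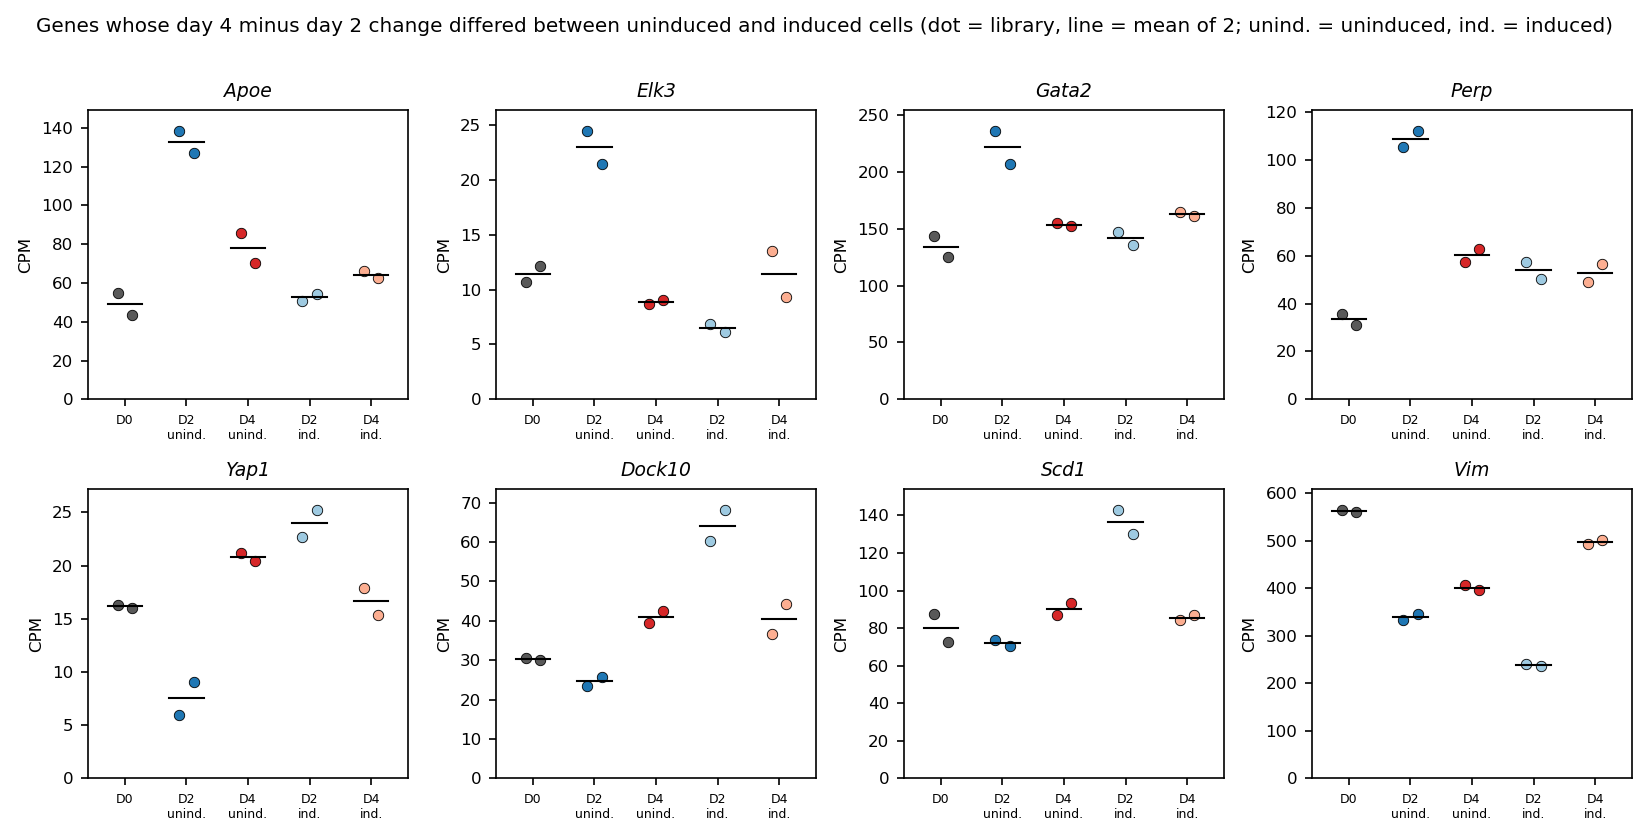
Each panel plots the CPM (vertical, from 0) of 1 gene in the 2 libraries of each control group, with a line at the mean. In Apoe, Elk3, Gata2 and Perp the uninduced day 2 libraries were the highest, in Yap1 and Dock10 they were the lowest, and the induced day 2 libraries were the highest in Scd1 and the lowest in Vim.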

How the data were processed

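RNA was sequenced from 14 libraries in 7 groups of 2. The values are read counts per gene, deposited by the authors as 1 table together with transcript lengths in bases. Reads of 76 bases came from polyA-selected libraries, per the labels. The submitters' processing notes name FastQC 0.11.5, Trimmomatic 0.36, STAR 2.6.1a and featureCounts 1.6.3 with a mouse build, whereas the labels' protocol text names HTSeq and a human build, so the counter is uncertain. Coordinates are those in the deposited table and are printed only for genes with the same position in GENCODE M21 (GRCm38).

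Counts were fitted with edgeR 4.0.16 (R 4.3.3; TMM scaling, robust quasi-likelihood test, 1 model over all 14 libraries, low counts filtered by filterByExpr), and every adjusted p in the text, unless DESeq2 is named, is from that test with Benjamini-Hochberg adjustment over 10791 genes and a threshold of 0.05. The common biological coefficient of variation was 5.04%. Chi-square per degree of freedom between replicates, a measure of spread beyond counting noise that also grows with depth, was highest in the 2 groups compared. It was 2.48 for uninduced day 2 and 2.71 for uninduced day 4, against 1.16 to 1.7 in the other groups. The pooled spread may therefore be too small for these 2 groups. An exact permutation test of 2 against 2 libraries cannot go below p = 0.333. The difference between sorts was an interaction contrast.

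Alternatives were DESeq2 1.42.0, other scalings and filters, fewer libraries in the fit, thinning, a replicate block, each library left out and, added after seeing the data, a length offset. The rule for naming takes the 10 genes with the largest change in each direction among called genes of at least 5 CPM whose groups do not overlap, up to 4 called members of each of 37 lists, 3 markers, up to 10 genes called for the difference and 4 genes of the line. Not every list member the rule takes is named. List members that did not pass, further called list members and the genes in the closing section were chosen after their values were seen. The comparison and the lists were chosen with earlier results of these data known. The Ogdh hairpin libraries entered the fit and are not described. Some items are not reported here.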

Additional observations from a re-analysis of the deposited data

Results flagged for a closer look

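For 21 of the named genes the change from day 2 to day 4 differed between induced and uninduced control cells by the test of the difference itself (edgeR, adjusted p under 0.05). Over all tested genes 77 (0.714%) were called. Up to 10 of the named genes were taken for the smallest p in this same test, so that those pass is no further support. Values are the log2 change in induced cells minus that in uninduced cells.

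Of these, 11 were called under each of 16 alternatives. They were Apoe (1.09), the complement protease gene C1s1 (1.71), Cela1 (0.808), Cpne5 (2.55), Dock10 (-1.40), Gata2 (0.71), Hap1 (1.33), Hook1 (1.70), the desaturase gene Scd1 (-1.03), the intermediate filament gene Vim (0.821) and Yap1 (-1.86). All of them but Gata2 were among those taken for their small p in this test. C1s1, Cela1, Cpne5, Hap1 and Hook1 did not pass in uninduced cells and rose in induced cells. C1s1 measured 28.3 and 28.4 CPM and then 33.1 and 28.7 CPM in uninduced cells, against 10.7 and 7.50 CPM and then 31.6 and 35.9 CPM in induced cells. Dock10 rose in uninduced cells from 23.6 and 25.7 CPM to 39.6 and 42.5 CPM, a call lost with thinned libraries, and fell in induced cells from 60.2 and 68.1 CPM to 36.7 and 44.3 CPM.

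The other 10 lost the call in at least 1 alternative. Elk3 (2.16) lost it without replicate 1 of induced day 4, and Egln1 (2.03) lost it there and with DESeq2. Perp (0.772), Xist (-0.727) and Fn1 (0.717) lost it in 3 alternatives, Ly6e (0.766) in 4, Hist1h1c (-0.612) and Neat1 (0.655) in 6, Ldha (-0.412) in 7 and Arfgef3 (2.35) in 8. Egln1 measured 20.98 and 21.2 CPM and then 14.6 and 12.99 CPM in uninduced cells, against 5.51 and 2.73 CPM and then 12.8 and 10.7 CPM in induced cells.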

How the results depend on the processing

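DESeq2 called 139 genes in uninduced cells (58 higher and 81 lower, all among the 753), 542 in induced cells and 22 for the difference. Thinning the 4 libraries to equal depth, with the other 10 kept in the fit, gave 379 calls, and fitting the 4 libraries alone without thinning gave 536. Leaving out 1 library gave 296 to 780 calls in uninduced cells, 377 to 1190 in induced cells and 29 to 97 for the difference. The lowest were without replicate 2 of uninduced day 4 (the deepest library) and without replicate 1 of induced day 2. A lone sample left in a group was assumed to vary like the other groups. With the replicate number as a block the calls were 882, 1371 and 90. Same-numbered libraries correlated by 0.355 between the uninduced days and by -0.148 to 0.259 between other pairs of groups, so the numbers were not taken as pairs. The remaining alternatives gave 570 to 767 calls in uninduced cells. Of 138 named genes called, 57 kept their call under all 14 alternatives and none reversed. Depth limits genes of a few CPM, since 3 counts are 1.28 CPM in the shallowest of the 4 libraries.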

Other observations

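Further called genes, chosen after their values were seen, kept their calls under the 14 alternatives. Those lower at day 4 included Ly6e, a membrane-anchored antigen (136 and 124 CPM, then 56.7 and 50.4 CPM, -1.29 ± 0.10), Basp1, a membrane-bound signalling protein (75.8 and 77.4 CPM, then 33.1 and 29.6 CPM, -1.32 ± 0.12), the cytokine gene Mif (307 and 311 CPM, then 208 and 181 CPM, -0.68 ± 0.08) and the glutathione peroxidase gene Gpx1 (352 and 363 CPM, then 235 and 215 CPM, -0.68 ± 0.08). Cited1, a transcriptional coregulator, measured 20.1 and 17.3 CPM and then 6.51 and 7.37 CPM (-1.36 ± 0.21).

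Those higher at day 4 included Txnip, an inhibitor of glucose uptake and thioredoxin (194 and 205 CPM, then 309 and 321 CPM, 0.66 ± 0.08), Neat1, the RNA scaffold of nuclear paraspeckles (79.2 and 74.9 CPM, then 134 and 135.2 CPM, 0.81 ± 0.09), Eng, a TGF-beta coreceptor (23.1 and 25.9 CPM, then 48.3 and 44.8 CPM, 0.89 ± 0.14), and the homeobox gene Hhex (65.5 and 49.7 CPM, then 92.2 and 91.2 CPM, 0.71 ± 0.11). Anxa1, an annexin, measured 27.8 and 25.9 CPM and then 54.2 and 56.0 CPM. The transcription factor gene Sox17 had 2 and 2 counts at day 2 and 27 and 77 counts at day 4, and Slfn9 had 1 and 3 counts and then 20 and 62 counts. In each gene the groups did not overlap.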
